A study of Mus musculus with 12 samples.

Results

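TM3 and TM4 are established mouse cell lines derived from immature testis, and the labels carry TM3 as a testicular Leydig cell and TM4 as a Sertoli cell. They were compared here in their untreated state, across all genes: 3 TM3 libraries against 3 TM4 libraries, out of 12 in the series, each from cells given only 0.1% DMSO, the vehicle, for 72 hours. The other 6 libraries hold the same lines after 72 hours in 100 uM mono-(2-ethylhexyl) phthalate (MEHP, a metabolite of the plasticizer DEHP). Neither line is labelled with an engineered allele, and both grew in the same DMEM/F-12 mixture with bovine and equine serum, nonessential amino acids and antibiotics. Some label fields call the lines rat, but the gene identifiers and the stated organism are mouse. Whether the 3 libraries of a group are from separate cultures is not stated in the labels, and the p-values cover only the spread between these libraries, which may be technical. Each labelled cell type is represented by 1 line, so that cell type and line cannot be told apart.

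In the testis, Leydig cells lie between the tubules and convert cholesterol to testosterone with the cholesterol carrier Star, the side-chain cleavage enzyme Cyp11a1, 3-beta-hydroxysteroid dehydrogenases and Cyp17a1, under luteinizing hormone acting on its receptor Lhcgr. Sertoli cells line the tubules and nurse the germ cells. They are specified by the transcription factors Sox9, Dmrt1, Wt1 and Gata4, respond to follicle-stimulating hormone through Fshr, and secrete Amh, inhibins and desert hedgehog (Dhh), which acts on Leydig cells through the receptor Ptch1. Peritubular myoid cells, which contract around the tubule, and mesothelial cells, which cover the organ's surface, share some of these genes.

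Each DMSO library held between 15771908 and 18203115 counts assigned to genes. Levels are given as CPM (counts scaled to a common library size), as mean ± SD over the 3 libraries of a line, and differences as the fitted log2 fold change, TM4 minus TM3, ± its standard error. Where levels of different genes are set side by side, TPM, which also allow for gene length, are used. A gene was called at a Benjamini-Hochberg adjusted p under 0.05 in edgeR's quasi-likelihood test over 15700 genes, and "higher" and "lower" are used of called genes, TM4 read against TM3. At this depth a gene without a count may have had up to 3 counts in a library, on average 0.181 CPM in TM3 and 0.183 CPM in TM4. A fold against a line without any count is therefore a lower bound against that limit, and a gene with 1 to 3 counts in all in a line is given as a ratio of counts scaled by library size, with its exact 95% interval. Limits and intervals cover counting error only.

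The untreated lines differed at most of the genes they express. Of the 15700 genes tested, 12881 were called (82.0%), 6280 of them higher in TM4 (40.0%) and 6601 lower (42.0%), and the median log2 fold change was -0.01. With a fold of at least 4 as well, 3903 genes were called (24.9%), 1509 higher in TM4 (9.61%) and 2394 lower (15.2%). The libraries of the lines did not overlap at 13014 genes (82.9%). Of 13710 genes with at least 1 CPM in each library of at least 1 of the lines, 534 (3.89%) were counted in TM3 and at or under 3 counts in every TM4 library, and 281 (2.05%) were counted in TM4 and at that floor in TM3. The TM3 set included 372 protein-coding genes and 28 with a transcription factor family in the deposited table, and the TM4 set 219 and 17. A gene entered the test only if some group expressed it, so the tested members of a list are not the whole list. The shares over all genes given here are the background for the counts of every list below. In bulk RNA, fewer cells expressing a gene and less RNA per cell cannot be told apart.

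Neither line carried the RNA of a steroid-making Leydig cell. Hsd3b1, Hsd3b6, Lhcgr, Hsd17b3, Prlr and Hsd11b1 had 0 counts in the 6 libraries, and Cyp17a1 reached at most 0.17 CPM. Cyp11a1 stood at 0.364, 0 and 0.127 CPM in the TM3 libraries and was without a count in TM4. Star was counted at 5.7, 7.67 and 6.39 CPM in TM3 and at 8.46, 6.56 and 8.41 CPM in TM4, and these libraries overlapped (0.24 ± 0.16, adjusted p = 0.157, edgeR). Insl3, the Leydig hormone of testis descent, lay at 1.92 ± 0.269 CPM in TM3 and 1.73 ± 0.255 CPM in TM4 and was not called (adjusted p = 0.614, edgeR). Nr5a1, the nuclear receptor that drives steroidogenic genes, was at most 1.2 CPM in any library, and its libraries overlapped although the difference was called (-1.86 ± 0.62). Of the 20 Leydig markers in the table, 8 were at or under 3 counts in each of the 6 libraries and 10 were tested, of which 3 were higher and 5 lower in TM4, with a median of -0.18. The abundant ones are genes that other mesenchymal cells express too. The growth factor receptor Pdgfra was at 628 ± 15.5 CPM in TM3 and 119 ± 6.99 CPM in TM4 (-2.40 ± 0.05), and the lipoprotein receptor Scarb1 at 196 ± 9.42 and 248 ± 2.36 CPM (0.34 ± 0.05).

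The Sertoli markers were split between the lines, and several defining ones were absent from both. Fshr, Dmrt1, Rhox8, Nr0b1, Cst9, Cst12 and Aard had 0 counts in the 6 libraries, and Amh was at most 1.02 CPM in any of them (adjusted p = 0.495, edgeR). Wt1, the zinc finger factor of Sertoli cells, mesothelium and podocytes, was counted at 164, 163 and 175 CPM in the line labelled as Leydig and at 0.0631, 0.17 and 0 CPM in the line labelled as Sertoli (-10.88 ± 0.16). Its antisense neighbour Wt1os stood at 9.67 ± 1.06 CPM in TM3 and had 0 counts in TM4. The strand setting of the counting is not stated, but the 2 gene models do not overlap. On chromosome 2, Wt1os ends at base 105126510 and Wt1 starts at base 105126529. Sox9, the switch factor of Sertoli fate, was at 0.364, 0.341 and 0.38 CPM in TM3 and 2.21, 1.47 and 3.41 CPM in TM4, higher in TM4 and low in both (2.68 ± 0.40).

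Of 30 Sertoli markers in the table, 9 were at the floor in the 6 libraries and 18 were tested, 7 higher and 10 lower in TM4, with a median of -1.19. At 4-fold, 5 were higher and 8 lower. Clu, the secreted chaperone clusterin, was at 210, 191 and 211 CPM in TM3 and 1.14, 2.38 and 1.26 CPM in TM4 (-6.97 ± 0.11). Kitl, the ligand that Sertoli cells present to germ cells, was at 146 ± 6.13 and 27.3 ± 1.15 CPM (-2.41 ± 0.06). Dhh went the other way, with 3.73, 3.62 and 3.1 CPM in TM4 and 2 counts in TM3, a ratio of 87 (95% interval 23.7 to 724). Tubb3, a beta-tubulin best known from neurons, was likewise counted in TM4, at 5.7 ± 1.29 CPM, against 1 count in TM3. The inhibin and activin subunits moved apart: Inhbb was at 28.8, 24.2 and 26 CPM in TM3 and 143, 148 and 150 CPM in TM4 (2.48 ± 0.07), whereas Inha was at 11.4 ± 0.339 and 4.99 ± 0.897 CPM (-1.19 ± 0.17).

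**Figure D1:**
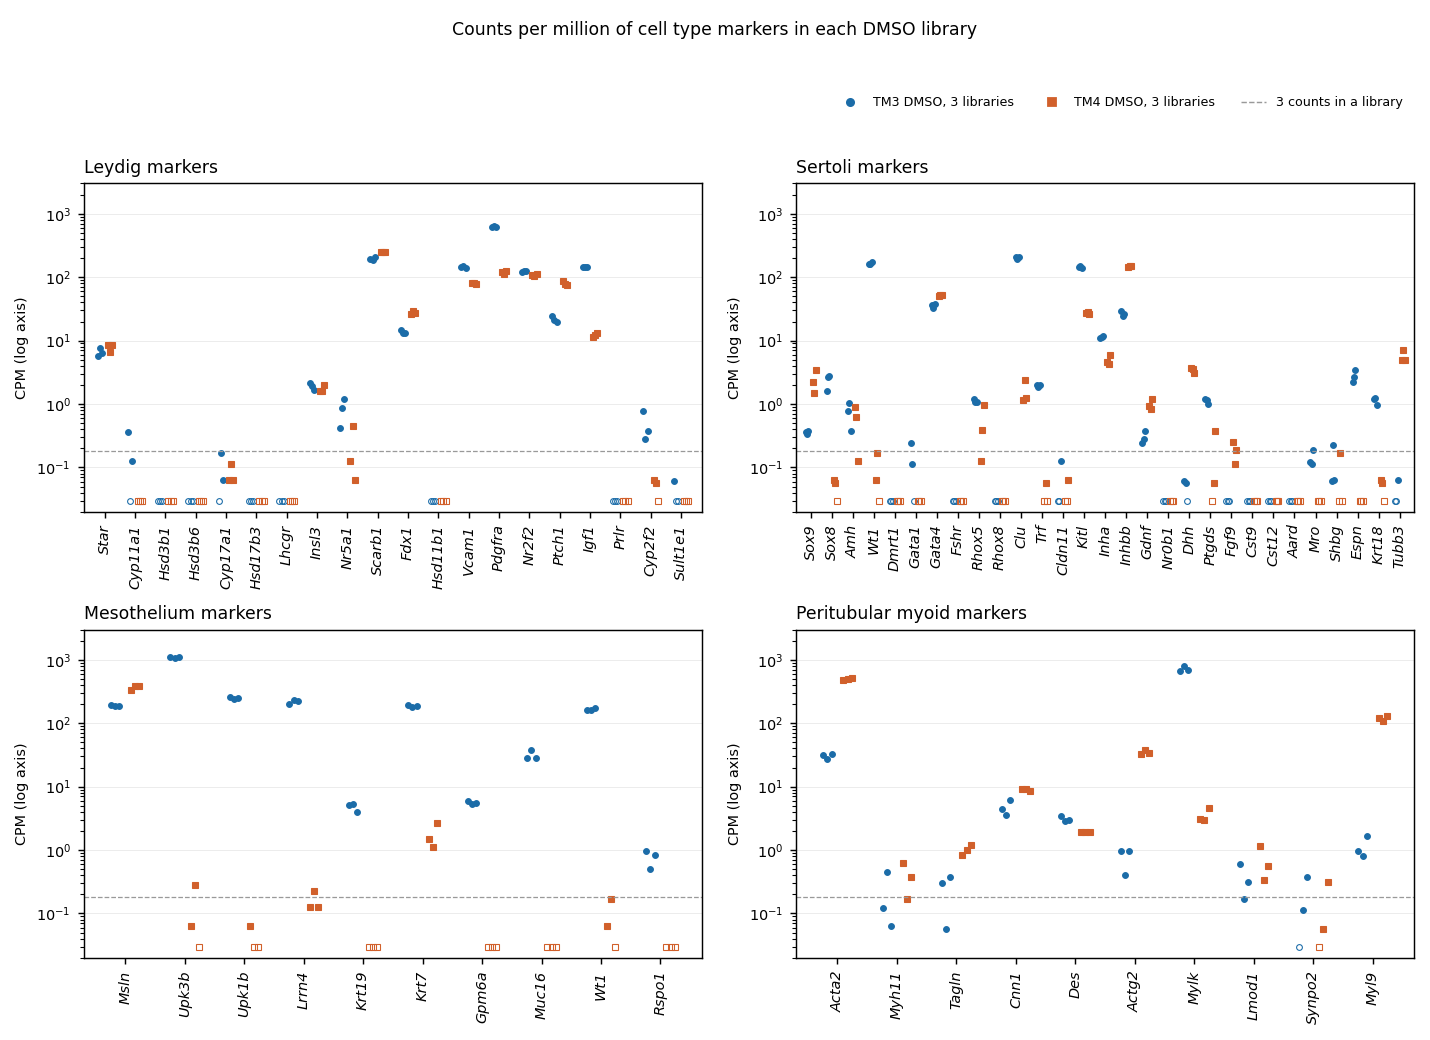
CPM on a log axis in each DMSO library for markers of Leydig cells, Sertoli cells, mesothelium and peritubular myoid cells, with TM3 as blue circles, TM4 as orange squares, open symbols at the bottom for 0 counts and a dashed line at 3 counts in a library. The mesothelial markers lie far apart with TM3 above TM4 except Msln, whereas most steroidogenic genes lie at or near 0 in both lines.

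The plot of markers by library shows the clearest contrast in the mesothelial list. Upk3b, a uroplakin of mesothelium and urothelium, was at 1116, 1072 and 1103 CPM in TM3 and 0.0631, 0.283 and 0 CPM in TM4 (-13.05 ± 0.14). Upk1b was at 249 ± 7.86 CPM in TM3 against 1 count in TM4, Lrrn4 at 220 ± 15.9 against 0.16 ± 0.0577 CPM (-10.34 ± 0.13), and the mucin Muc16 at 31.7 ± 5.63 CPM against 0 counts. Of 9 tested members of the 10 in the table, 8 were lower in TM4 by 4-fold or more and 1, Msln (mesothelin), was higher, at 190 ± 2.86 CPM in TM3 and 365 ± 27 CPM in TM4 (0.94 ± 0.05). The list's summed level was 2129 to 2168 CPM in the TM3 libraries and 336 to 386 CPM in the TM4 libraries, where Msln made up most of it. Simple and basal keratins followed: Krt7 was at 188 ± 6.29 CPM in TM3 and 1.77 ± 0.793 CPM in TM4 (-6.74 ± 0.11), and Krt14 at 23 ± 0.981 CPM in TM3 and 0 counts in TM4. Of 13 general epithelial genes in the table, 4 were tested, the keratins Krt8, Krt14, Krt18 and Krt19, and these 4 were lower in TM4 by 4-fold. Krt19 is in the mesothelial list too. The epithelial factor gene Grhl2, which was not tested, stood the other way, at 0.0211 ± 0.0366 CPM in TM3 and 0.469 ± 0.26 CPM in TM4. The list summed to 34.4 to 36.6 CPM in TM3 and 0.696 to 1.39 CPM in TM4. Epcam and Cdh1 (E-cadherin) were at the floor in both lines.

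Contractile genes of the myoid list were mostly higher in TM4. Acta2, smooth muscle actin, was at 31, 27.4 and 33.2 CPM in TM3 and 474, 494 and 517 CPM in TM4 (4.02 ± 0.07). Myl9, the regulatory myosin light chain, was at 1.14 ± 0.449 and 120 ± 11.9 CPM (6.73 ± 0.15), and the gamma actin Actg2 at 0.773 ± 0.325 and 34.6 ± 2.44 CPM (5.49 ± 0.18). Of 8 tested members, 5 were higher, 4 of them by 4-fold, and 2 were lower. The 4 include Tagln, which was low in both lines, at 1.01 ± 0.19 CPM in TM4. The largest of the lower ones was Mylk, myosin light chain kinase, at 667, 799 and 681 CPM in TM3 and 3.09, 3 and 4.62 CPM in TM4 (-7.65 ± 0.11). The list's summed level was therefore not higher in TM4, at 709 to 835 CPM in TM3, mostly Mylk, and 642 to 700 CPM in TM4. Myh11, the smooth muscle myosin heavy chain, stayed below the filter in both lines.

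Genes of fibroblasts and loose mesenchyme were abundant in both lines, and 10 of 11 tested were lower in TM4, with a median of -1.61. The summed level was 28834 to 30032 CPM in TM3 and 13917 to 15460 CPM in TM4. Lum (lumican), Fbln1 (fibulin-1) and Dcn (decorin) were the furthest apart, Fbln1 at 121 ± 5.4 and 5.56 ± 0.172 CPM (-4.44 ± 0.08). The endothelial list summed to at most 19.3 CPM in any library, the germ cell list to at most 29.9 CPM and the leukocyte list to at most 54.1 CPM. In TM3, most of the endothelial sum was Egfl7, at 15 ± 0.411 CPM. Most of the germ cell sum there was the zinc finger gene Zbtb16, at 22.6 ± 3.48 CPM in TM3 and 0.206 ± 0.206 CPM in TM4 (-6.75 ± 0.27). The leukocyte sum came mainly from Cd14, which mesenchymal cells also express, while Ptprc, Adgre1, C1qa, C1qb and Cd3e were at 0. The granulosa factors Foxl2 and Cyp19a1 were at 0 in the 6 libraries, whereas Wnt4, a factor of the ovarian and mesonephric lineages, was at 95.2, 85.6 and 91.4 CPM in TM3 and 0.316, 0.283 and 0.443 CPM in TM4 (-8.01 ± 0.15).

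Genes given a factor family in the deposited table leaned as a class toward TM3. The class is broader than transcription factors, since it includes, for example, an unannotated model of the Y chromosome with the family Gag_p30, which was lower in TM4. Of 1486 genes with a factor family in the deposited table, 974 were tested, of which 330 (33.9%) were higher and 535 (54.9%) lower in TM4, beside 40.0% and 42.0% over all genes. At 4-fold, 80 (8.21%) were higher and 193 (19.8%) lower, beside 9.61% and 15.2%, and their median was -0.42. The factors counted in TM3 and without a count in TM4 were led by Zbtb7c, a BTB zinc finger gene, at 136 ± 3.53 CPM, and Pax3, a paired-box factor of dermomyotome and neural crest. Pax3 was at 68, 63.3 and 59.3 CPM in TM3, at least 347-fold above TM4. Tfap2a, a neural crest and epidermal factor, at 11.8 ± 0.169 CPM, and Lin28b, an RNA-binding repressor of let-7 that the table lists with the factors, at 6.84 ± 1.11 CPM, were also without a count in TM4. In the other direction, Repin1, Mef2c (a myocyte enhancer factor), Bcl6b, Msx2 and Irx5 were counted in TM4, with means of 8.81 to 13.9 CPM in TM4 and 0 counts in TM3.

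Among the factors of the early gonad, 21 of 31 genes in the table were tested, 7 higher and 13 lower in TM4, with a median of -0.49. Gata4 was counted at 35.8, 32.8 and 37.5 CPM in TM3 and 50.7, 52.2 and 53 CPM in TM4 (0.56 ± 0.07). Its relative Gata6 was at 450, 434 and 458 CPM in TM3 and 48.8, 51.4 and 46.2 CPM in TM4 (-3.20 ± 0.05). The GATA pair thus had opposite directions, and the lines overlapped at neither. Osr2, an odd-skipped factor of limb and kidney mesenchyme, was at 0.258 ± 0.0765 and 11 ± 0.683 CPM (5.37 ± 0.26), and its paralog Osr1 at 21.5 ± 1.18 and 2.74 ± 0.797 CPM (-2.97 ± 0.16). Emx2, which the gonad and kidney anlagen require, was higher in TM4, at 31.6 ± 1.49 and 132 ± 1.58 CPM (2.06 ± 0.07). Sox8, a relative of Sox9, was counted in TM3, at 2.32 ± 0.646 CPM, against 2 counts in TM4.

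**Figure D2:**
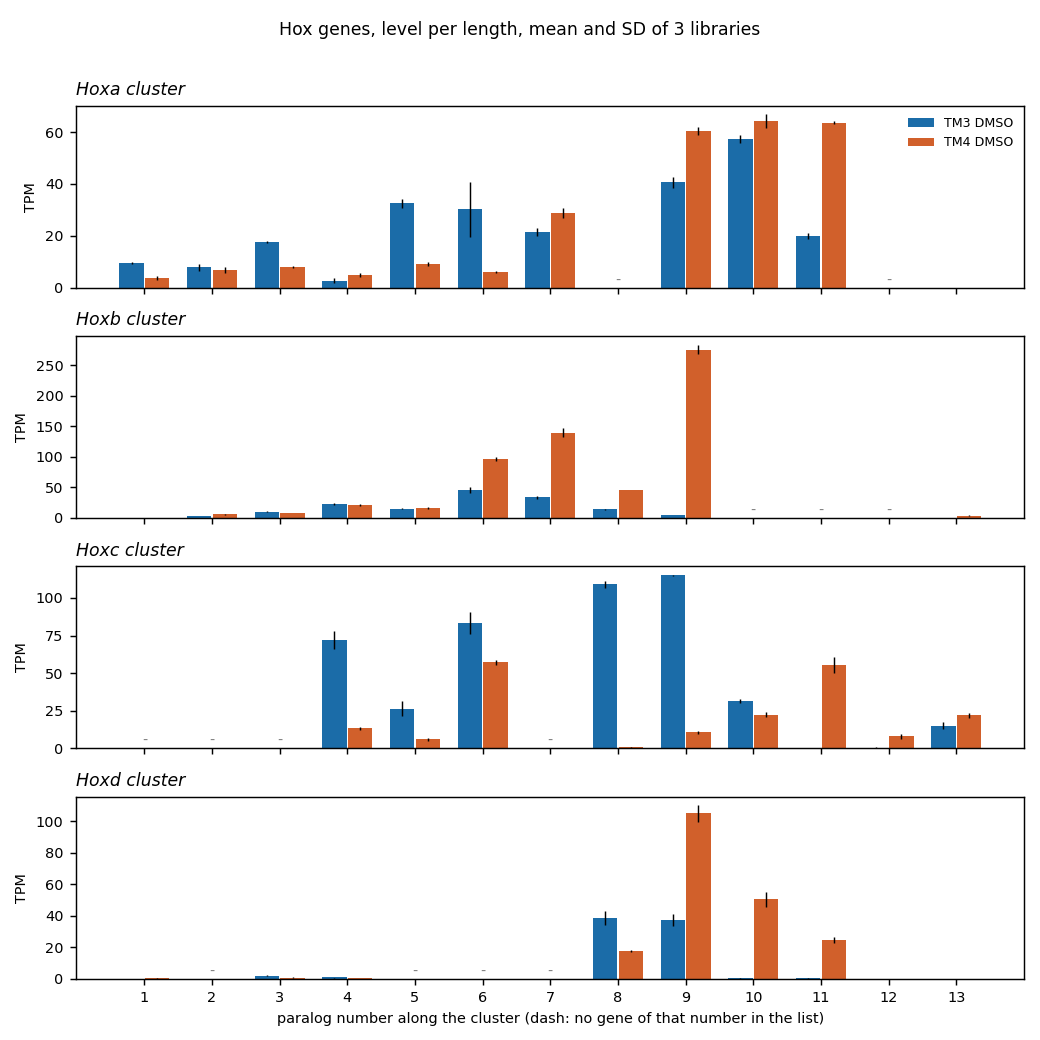
TPM (mean ± SD, n = 3) of the Hox genes in TM3 and TM4 by paralog number in the 4 clusters A to D. Hoxb9, Hoxc11, Hoxd9, Hoxd10 and Hoxd11 stand out in TM4, and Hoxc8 and Hoxc9 in TM3.

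Hox genes, homeobox factors that lie in 4 clusters and mark position along the body axis, were expressed in both lines, with large differences at some members. Of 40 in the table, 34 were tested, 17 higher and 12 lower in TM4, with a median of 0.28. At 4-fold, 7 (20.6%) were higher and 5 (14.7%) lower, beside 9.61% and 15.2% over all genes, and the other tested members were not called or lay within 4-fold. Hoxb9 was at 3.4, 3.46 and 3.1 CPM in TM3 and 233, 228 and 239 CPM in TM4 (6.13 ± 0.08). Hoxd11 was at 0.0959 ± 0.118 and 33.7 ± 3.12 CPM (8.29 ± 0.26). Its neighbour Hoxd10 was at 30 ± 2.62 CPM in TM4 against 2 counts in TM3, and Hoxc11 at 36.8 ± 3.81 CPM against 2 counts. In the C cluster the gene order changed sides: Hoxc8 was at 94.5, 89.7 and 90.6 CPM in TM3 and 0.884, 0.396 and 0.316 CPM in TM4 (-7.42 ± 0.15), and Hoxc9 at 82.4 ± 0.887 and 8.48 ± 0.799 CPM (-3.28 ± 0.09), whereas Hoxc11 and Hoxc12 were higher in TM4. By TPM, which the plot of Hox genes by paralog number shows, Hoxb9 (276 ± 7.98) was far above Hoxd10 (50.3 ± 4.74) in TM4, and Hoxc9 (115 ± 0.235) and Hoxc8 (109 ± 2.06) were close in TM3.

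The 4 tested T-box genes were higher in TM4, and Tbx3, a limb and mammary regulator, was at 8.98, 6.76 and 9.24 CPM in TM3 and 195, 189 and 191 CPM in TM4 (4.53 ± 0.08). Tbx18, a marker of the coelomic and nephrogenic mesenchyme, was at 0.641 ± 0.188 and 21.6 ± 1.23 CPM (5.06 ± 0.18). Of 6 tested Sox genes, 5 were lower in TM4, among them Sox11 at 16.5 ± 1.16 and 0.143 ± 0.0407 CPM (-6.78 ± 0.28). Among 20 tested forkhead genes, Foxo6 was at 49.7 ± 2.12 CPM in TM3 and 0.115 ± 0.149 CPM in TM4 (-8.59 ± 0.25), and Foxc1, which acts in paraxial and kidney mesenchyme, at 32.2 ± 1.92 and 266 ± 2.98 CPM (3.05 ± 0.06). Eya4, a transcriptional co-activator, was at 89 ± 5.08 and 0.496 ± 0.259 CPM (-7.44 ± 0.14). Irx1 was at 0.467 ± 0.31 and 36.9 ± 1.91 CPM (6.30 ± 0.18), and Irx5 of the same family was counted in TM4 and not in TM3. Of 19 tested regulators of mesenchyme and of the epithelial to mesenchymal transition, 14 were higher in TM4 and 4 lower, 1 each way by 4-fold. The lower one by 4-fold was Tead3, a partner of Yap1, at 119 ± 0.317 and 14.4 ± 1.29 CPM (-3.04 ± 0.07), and the higher one its paralog Tead4 (2.47 ± 0.11).

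Of 49 steroid and other nuclear receptors in the table, 29 were tested, 16 higher and 12 lower in TM4, 6 and 2 by 4-fold, with a median of 0.24. The progesterone receptor gene Pgr was counted in TM4, at 7.01, 6.62 and 6.96 CPM, against 1 count in TM3. Esr1, the estrogen receptor, was at 110 ± 7.62 CPM in TM3 and 114 ± 2.79 CPM in TM4 and was not called (0.05 ± 0.06, adjusted p = 0.371, edgeR). Vdr, the vitamin D receptor, was at 128, 133 and 126 CPM in TM3 and 1.33, 0.566 and 0.506 CPM in TM4 (-7.34 ± 0.13). Thrb, a thyroid hormone receptor, was at 30.1 ± 1.4 CPM in TM3 against 2 counts in TM4. The 3 members of the inducible Nr4a family were each higher in TM4, Nr4a2 at 2.25 ± 0.478 and 39 ± 2.47 CPM (4.10 ± 0.13). The Krüppel-like factors gave examples in both directions, with Klf5 at 3.67 ± 0.498 and 60.2 ± 4.17 CPM (4.04 ± 0.11) and Egr3 at 8.24 ± 0.491 and 0.774 ± 0.103 CPM (-3.41 ± 0.22).

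**Figure D3:**
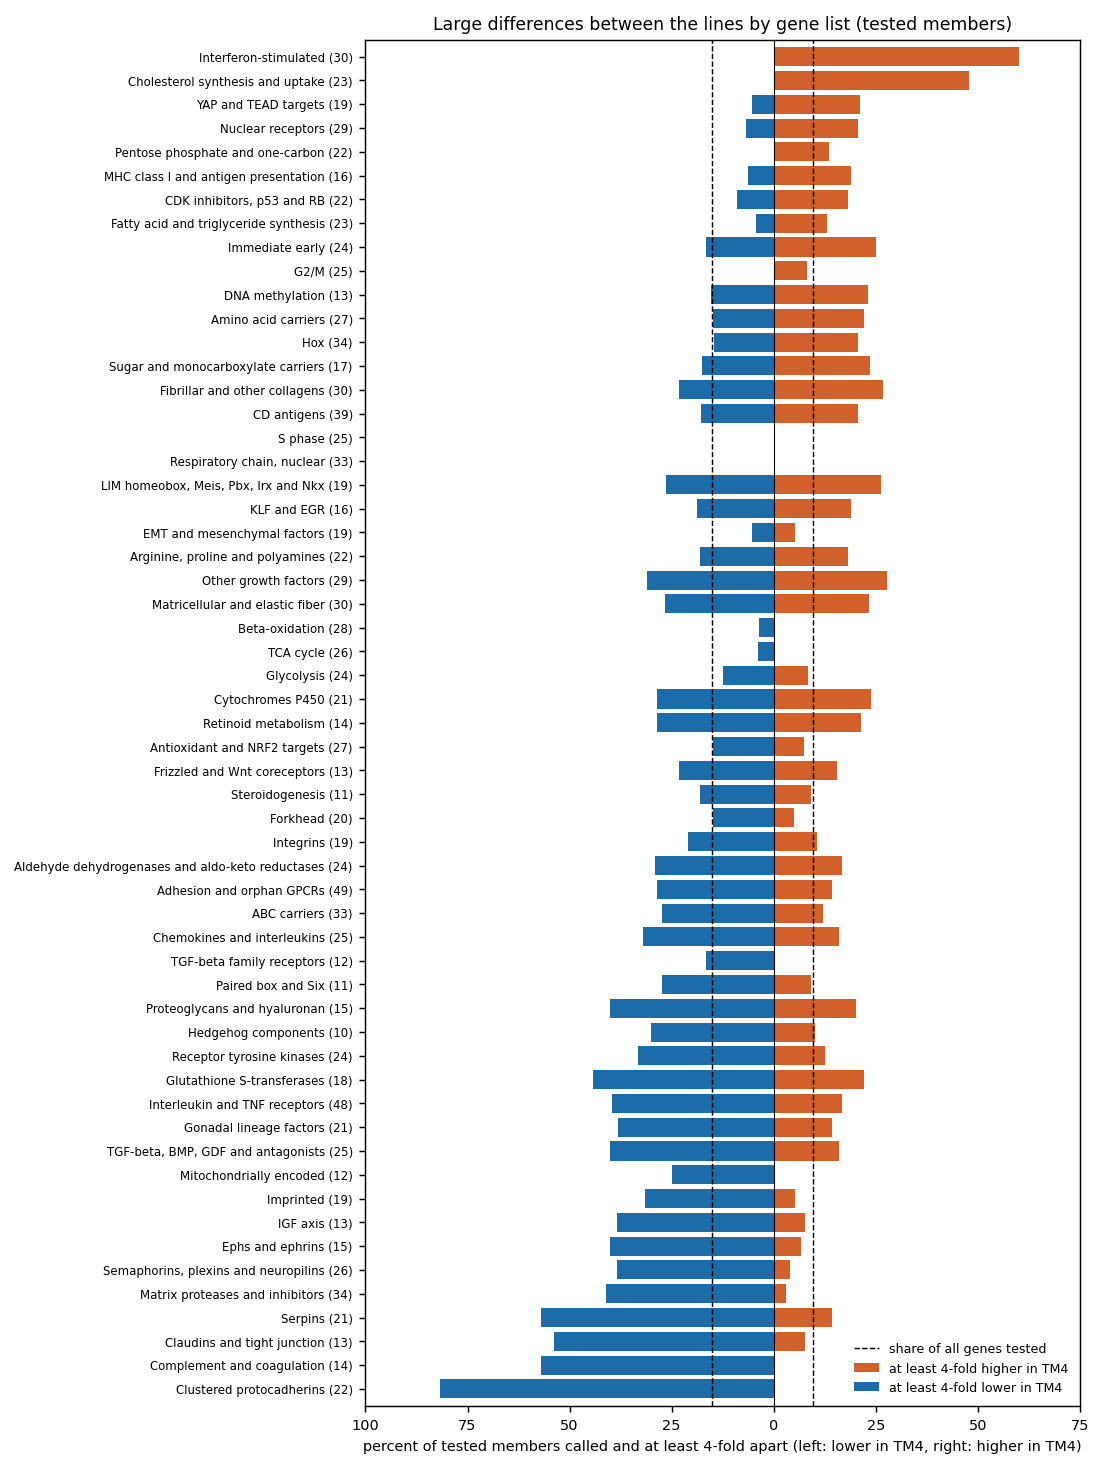
Percent of the tested members of each gene list that were called and at least 4-fold higher (right) or lower (left) in TM4, for lists with at least 10 tested members other than cell type markers. Dashed lines give the percent over all 15700 genes (9.61 higher and 15.2 lower); interferon-stimulated and cholesterol genes reach furthest to the right, and clustered protocadherins furthest to the left.

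The plot of 4-fold shares by list puts these families beside the background. Among the lists plotted, the clustered protocadherins, adhesion molecules that give neurons their individual identity, had the largest share lower by 4-fold (81.8%). Of 58 in the table, 22 were tested, 19 were lower in TM4, 18 by 4-fold, and 0 were higher, with a median of -3.80, or -3.03 when genes without counts in a line are put at their bound. Pcdhb22 was at 22.9, 23.2 and 26.7 CPM in TM3 and 0.379, 0.113 and 0.696 CPM in TM4 (-5.95 ± 0.23). Members of these clusters share exons or sequence, so the split of reads between them is uncertain. Classical cadherins differed as well: Cdh11, the mesenchymal cadherin, was at 1235, 1265 and 1226 CPM in TM3 and 90.1, 88.6 and 87.5 CPM in TM4 (-3.81 ± 0.05), and Cdh13, a GPI-anchored cadherin, at 12 ± 1.29 CPM in TM4 against 2 counts in TM3. Of 13 tested tight-junction genes, 10 were lower, 7 of them by 4-fold, including Ocln (occludin) and Cldn2, which had 0 counts in TM4.

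Of 19 tested integrins, the receptors for the matrix, 7 (36.8%) were higher and 10 (52.6%) lower in TM4, beside 40.0% and 42.0% over all genes, and 2 and 4 differed by 4-fold. The collagen receptor subunit Itga1 was at 99 ± 5.54 CPM in TM3 and 0.943 ± 0.39 CPM in TM4 (-6.72 ± 0.14), and Itgb3 of the vitronectin receptor at 0.639 ± 0.117 and 6.02 ± 0.836 CPM (3.22 ± 0.27). Of 39 tested CD and Ly6 antigens, 13 (33.3%) were higher and 23 (59.0%) lower in TM4. At 4-fold, 8 (20.5%) were higher and 7 (17.9%) lower, beside 9.61% and 15.2% over all genes. Ly6a (Sca-1) had 0 counts in TM3 and 96.8, 110 and 122 CPM in TM4, at least 606-fold higher. Cd34 was at 9.08 ± 0.645 and 108 ± 7.11 CPM (3.57 ± 0.09), and the hyaluronan receptor Cd44 at 12.1 ± 0.647 and 123 ± 6.11 CPM (3.35 ± 0.08), and both genes were picked after their values were seen. Cd38, an NAD-consuming ectoenzyme, was at 137, 133 and 136 CPM in TM3 and had 0 counts in TM4, at least 740-fold lower, and the pericyte antigen Cd248 was at 110 ± 3.69 and 1.76 ± 0.233 CPM (-5.96 ± 0.10).

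Of 26 tested semaphorins, plexins and neuropilins, 7 (26.9%) were higher and 18 (69.2%) lower, beside 40.0% and 42.0% over all genes. At 4-fold, 1 (3.85%) was higher and 10 (38.5%) lower, beside 9.61% and 15.2%. Plxna4 was at 128, 150 and 130 CPM in TM3 and 0.189, 0.0566 and 0 CPM in TM4 (-10.59 ± 0.18), the ligand Sema3c at 130 ± 4.39 and 0.385 ± 0.126 CPM (-8.37 ± 0.13), and the co-receptor Nrp1 at 67.8 ± 1.26 and 1.06 ± 0.36 CPM (-5.97 ± 0.13). Ephs and ephrins gave 12 of 15 lower, 6 of them by 4-fold, and Ephb6 was at 48 ± 2.4 and 0.0965 ± 0.117 CPM (-8.79 ± 0.23). The ephrin Efnb1 was at 174 ± 1.92 and 3.67 ± 0.475 CPM (-5.57 ± 0.08).

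Of 24 tested receptor tyrosine kinases, which read growth factors, 9 (37.5%) were higher and 11 (45.8%) lower in TM4, close to the 40.0% and 42.0% over all genes. At 4-fold, 3 (12.5%) were higher and 8 (33.3%) lower, beside 9.61% and 15.2%. Mst1r was the furthest of those counted in both lines (-5.55 ± 0.16), followed by the keratinocyte growth factor receptor Fgfr2, at 110 ± 2.52 and 5.52 ± 0.198 CPM (-4.32 ± 0.08). The matrix-sensing kinase Ddr1 was at 457 ± 4.89 and 32.7 ± 1.32 CPM (-3.80 ± 0.06), and Ror2, a receptor for Wnt5a, had 0 counts in TM3 and 30.2, 29.8 and 27.4 CPM in TM4, at least 161-fold higher. Of 10 tested hedgehog components, 2 were higher and 6 lower in TM4, with a median of -0.40. The receptor and target Ptch1 was at 24.3, 21.3 and 19.7 CPM in TM3 and 86.6, 77.4 and 76.4 CPM in TM4 (1.88 ± 0.08), and Gli1, the other common target, was not called (0.29 ± 0.24, adjusted p = 0.259, edgeR). The co-receptors Gas1, Cdon and Boc were each lower in TM4, Gas1 at 828, 765 and 837 CPM in TM3 and 18.7, 18.1 and 28.1 CPM in TM4 (-5.23 ± 0.13). The 4 Notch receptor genes were lower in TM4, Notch3 at 206 ± 11.3 and 15.1 ± 1.21 CPM (-3.76 ± 0.09). Of 13 tested frizzleds and co-receptors, 4 were higher and 7 lower, and Fzd1 was at 123 ± 1.5 and 2.2 ± 0.336 CPM (-5.79 ± 0.10).

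Of 48 tested interleukin and TNF receptors, 16 (33.3%) were higher and 29 (60.4%) lower in TM4, with a median of -1.16. At 4-fold, 8 (16.7%) were higher and 19 (39.6%) lower, beside 9.61% and 15.2% over all genes. Il18rap was at 78.2 ± 5.83 and 1.16 ± 0.464 CPM (-6.05 ± 0.13), and the decoy receptor Tnfrsf23 at 1.03 ± 0.323 and 20.2 ± 1.63 CPM (4.29 ± 0.17). Among 49 tested adhesion, orphan and lipid receptors of the G protein-coupled class, Adgrg1 was at 150, 143 and 151 CPM in TM3 against 1 count in TM4, and Gpr149 had 0 counts in TM3 and 26.1 ± 0.396 CPM in TM4, at least 144-fold higher. Of 16 tested genes of MHC class I presentation, 9 were higher and 5 lower in TM4, with the immunoproteasome subunit Psmb8 at 0.351 ± 0.306 and 11.5 ± 1.55 CPM (5.04 ± 0.27). The class I genes H2-D1, at 0.442 ± 0.301 and 6.04 ± 0.656 CPM (3.75 ± 0.32), and H2-Q4, at 13.3 ± 0.47 CPM in TM3 and 0 counts in TM4, are near-identical in sequence, so that reads may be split between them and their level is uncertain.

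Several abundant secreted proteins of TM3 were nearly absent from TM4. Lox, the enzyme that crosslinks collagen and elastin, was at 2836, 2825 and 2825 CPM in TM3 and 0.253, 0.623 and 0.569 CPM in TM4 (-12.48 ± 0.10, adjusted p = 4.08e-38, edgeR). C3, the central complement protein, was at 2053, 2128 and 2080 CPM in TM3 and 3.35, 2.94 and 1.96 CPM in TM4 (-9.56 ± 0.09). Nid2, which links laminin to collagen IV, was at 1314, 1373 and 1330 CPM in TM3 and 2.65, 2.49 and 2.85 CPM in TM4 (-8.97 ± 0.08). Per length these genes stood at 1987 ± 21.3, 1372 ± 42 and 875 ± 30.6 TPM in TM3, in that order, and the lines overlapped at none of them. Of 14 tested complement and coagulation genes, 2 were higher and 10 lower, 8 of these by 4-fold, with a median of -2.38.

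Of 30 tested collagens, 12 (40.0%) were higher and 16 (53.3%) lower in TM4, beside 40.0% and 42.0% over all genes. At 4-fold, 8 (26.7%) were higher and 7 (23.3%) lower, beside 9.61% and 15.2%. Col12a1 was at 216 ± 17.2 and 3.98 ± 0.223 CPM (-5.76 ± 0.09), Col27a1 at 26.7 ± 1.34 CPM in TM3 against 3 counts in TM4, and in the other direction Col7a1, the anchoring fibril collagen, at 0.882 ± 0.0837 and 15.1 ± 1.3 CPM (4.09 ± 0.19). The main fibril genes Col1a1 and Col1a2 were abundant in both, at 6637 ± 124 and 5615 ± 116 CPM in TM3 and 2827 ± 123 and 4343 ± 230 CPM in TM4. Lama5, a laminin chain of basement membranes, was at 731, 860 and 754 CPM in TM3 and 12.6, 10.1 and 10.2 CPM in TM4 (-6.16 ± 0.09). The fibulin-family gene Efemp1 was at 158 ± 6.53 CPM in TM3 and had 0 counts in TM4, at least 866-fold lower. Spp1 (osteopontin) was at 2.06, 2.44 and 2.34 CPM in TM3 and 123, 148 and 152 CPM in TM4 (5.94 ± 0.15). Of the small leucine-rich proteoglycans, Fmod (fibromodulin) was at 160 ± 5.94 CPM in TM3 against 1 count in TM4, and Aspn (asporin) at 0.0947 ± 0.164 and 28.8 ± 2.98 CPM (8.06 ± 0.31).

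Enzymes that remodel the matrix and their inhibitors were lower in TM4 in 26 of 34 tested genes (76.5%) and higher in 6 (17.6%), with a median of -1.48. At 4-fold, 14 (41.2%) were lower and 1 (2.94%) higher, beside 15.2% and 9.61% over all genes. Mmp13, collagenase 3, was at 60.5, 55 and 53.9 CPM in TM3 and 0.0631, 0.226 and 0.126 CPM in TM4 (-8.56 ± 0.19). The inhibitor Timp3 was at 353 ± 10.4 and 8.69 ± 1.55 CPM (-5.33 ± 0.08), and the aggrecanase-family protease Adamts9 at 145 ± 9.28 and 7.08 ± 1.31 CPM (-4.36 ± 0.09). Of 21 tested serpins, protease inhibitors, 7 were higher and 12 lower in TM4. At 4-fold, 3 (14.3%) were higher and 12 (57.1%) lower, beside 9.61% and 15.2% over all genes. The list's summed level was nevertheless higher in TM4, at 1754 to 1841 CPM in TM3 and 3233 to 3328 CPM in TM4. Serpina3g and Serpinb8 were at 0 counts in TM4, and Serpinb9b was among the higher ones, at 0.0994 ± 0.0315 and 9.17 ± 1.51 CPM (6.42 ± 0.35). The Serpina3 genes are close copies of one another, so the division of reads among them is uncertain.

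In the TGF-beta family and its antagonists, 18 of 25 tested genes were lower in TM4 and 5 higher, 10 and 4 by 4-fold, with a median of -1.10. Bmp4 was at 110, 105 and 101 CPM in TM3 and 0.126, 0 and 0 CPM in TM4, a ratio of 2598 (95% interval 719 to 21460). Its antagonist Grem1 was at 119 ± 0.398 and 1 ± 0.335 CPM (-6.87 ± 0.12). Fstl3, which binds activins, was at 0.243, 0.398 and 0.127 CPM in TM3 and 48.5, 43.1 and 42 CPM in TM4 (7.38 ± 0.20), whereas the related Fst was at 47.8 ± 1.75 and 3.19 ± 0.68 CPM (-3.90 ± 0.11). Inhba, the activin A subunit, was at 5.22, 5.79 and 6.65 CPM in TM3 and 45.6, 45.4 and 46.5 CPM in TM4 (2.96 ± 0.11). The activin subunits and Fstl3 were thus higher in TM4, and Fst and Inha lower.

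Among Wnt ligands, Wnt4 and Wnt7b were opposite: Wnt7b was at 1.78 ± 0.416 and 48.5 ± 1.59 CPM (4.77 ± 0.13). The Wnt antagonist Dkk2 had 0 counts in TM3 and 43.2, 45.8 and 47 CPM in TM4, at least 251-fold higher, and the R-spondin Rspo2 had 0 counts in TM3 and 3.87 ± 0.502 CPM in TM4. Sfrp2, another antagonist, was at 19.9 ± 0.993 CPM in TM3 and 0 counts in TM4. Hgf, the scatter factor for Met, was at 0.182, 0.341 and 0.253 CPM in TM3 and 48.9, 48.1 and 46.1 CPM in TM4 (7.48 ± 0.18). Met itself was at 544 ± 23.4 CPM in TM3 and 128 ± 3.14 CPM in TM4 (-2.09 ± 0.05), so that ligand and receptor differed in opposite directions. Ptn (pleiotrophin) was at 59.6 ± 3.48 CPM in TM3 and had 0 counts in TM4. In the FGF family, Fgf18 was at 19.2 ± 2.25 and 0.139 ± 0.121 CPM (-7.01 ± 0.28), Fgf2 at 82 ± 0.954 and 3.64 ± 0.232 CPM (-4.49 ± 0.10) and Fgf7, a ligand for epithelia, at 7.04 ± 1.14 and 57.9 ± 3.6 CPM (3.03 ± 0.10).

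Igfbp4, a carrier of insulin-like growth factors, was one of the most abundant secreted products of TM3, at 4035, 3728 and 4049 CPM, against 125, 107 and 125 CPM in TM4 (-5.05 ± 0.10). Igf1 followed, at 144 ± 0.851 and 12.3 ± 0.705 CPM (-3.55 ± 0.11), and Igfbp3 was at 24.8 ± 1.92 CPM in TM3 and 0 counts in TM4. Of 13 tested genes of this axis, 4 were higher and 7 lower. Chemokines and interleukins gave 8 of 25 tested (32.0%) higher and 15 (60.0%) lower, beside 40.0% and 42.0% over all genes. Cxcl12, which retains progenitor and immune cells, was at 1127, 1172 and 1190 CPM in TM3 and 32.3, 34.8 and 33.4 CPM in TM4 (-5.12 ± 0.08), and Ccl5, a T-cell attractant, was at 37.2, 35.6 and 35.6 CPM in TM4 against 1 count in TM3.

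Of 24 tested genes of glycolysis, 8 were higher and 14 lower in TM4, with a median of -0.30. At 4-fold, 2 (8.33%) were higher and 3 (12.5%) lower, near the 9.61% and 15.2% over all genes. Of 26 of the citrate cycle, 13 were higher and 11 lower, with 1, Me3, lower by 4-fold. Of 33 nuclear genes of the respiratory chain, 12 were higher and 11 lower, 0 by 4-fold either way, with a median of -0.04. Aldoc was at 22.4, 20.6 and 24.1 CPM in TM3 and 0.442, 0.509 and 0.696 CPM in TM4 (-5.33 ± 0.19), the lactate dehydrogenase B gene Ldhb at 208 ± 5.41 and 24.3 ± 1.68 CPM (-3.10 ± 0.06), Pfkl at 250 ± 8.96 and 38.3 ± 3.25 CPM (-2.70 ± 0.07) and Hk1 at 21.2 ± 0.665 and 128 ± 5.43 CPM (2.59 ± 0.07). Gapdh, which has many processed copies in the mouse genome, was at 19.4, 26.8 and 22.3 CPM in TM3 and 193, 22.3 and 98.7 CPM in TM4 and was not called (adjusted p = 0.0559, edgeR), but it passed without TM4 replicate 2 (2.68, adjusted p = 0.017, edgeR).

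Several genes of serine, one-carbon and amino acid synthesis were higher in TM4. Aldh1l2, which oxidizes formyl-folate in mitochondria, was at 22.8, 27.4 and 21.3 CPM in TM3 and 653, 590 and 622 CPM in TM4 (4.70 ± 0.10). Mthfd2, the mitochondrial folate dehydrogenase, was at 50.3, 33.1 and 33.5 CPM in TM3 and 400, 385 and 413 CPM in TM4 (3.36 ± 0.14), Psat1 of serine synthesis at 122 ± 7.53 and 757 ± 11.5 CPM (2.63 ± 0.06), and asparagine synthetase Asns at 50.8 ± 6.82 and 607 ± 36.6 CPM (3.58 ± 0.08). Of 22 tested pentose phosphate and one-carbon genes, 13 were higher and 8 lower, 3 and 0 by 4-fold, with a median of 0.33. Glul, glutamine synthetase, had 0 counts in TM3 and 38.2, 37.4 and 43.6 CPM in TM4, at least 220-fold higher. Pycr1, the last step to proline, was at 12.1 ± 0.51 and 110 ± 10 CPM (3.18 ± 0.09).

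The arginine and lysine carrier Slc7a3 was at 0.607, 0.454 and 0.443 CPM in TM3 and 75.8, 74.3 and 83.2 CPM in TM4 (7.26 ± 0.14), and its paralog Slc7a2 at 87.9, 99.4 and 88.8 CPM in TM3 against 1 count in TM4. The glutamine carrier Slc38a1 was at 3.15 ± 0.519 and 271 ± 3.19 CPM (6.42 ± 0.09), and the cystine carrier Slc7a11 at 3.33 ± 0.787 and 46 ± 1.21 CPM (3.79 ± 0.11). Of 27 tested carriers of amino acids, 15 (55.6%) were higher and 10 (37.0%) lower, beside 40.0% and 42.0% over all genes. At 4-fold, 6 (22.2%) were higher and 4 (14.8%) lower, beside 9.61% and 15.2%. Monocarboxylate carrier Slc16a3 was lower in TM4, at 38.1 ± 2.24 and 1.57 ± 0.284 CPM (-4.60 ± 0.13), and the inositol carrier Slc5a3 higher, at 31.3 ± 2.75 and 181 ± 7.27 CPM (2.53 ± 0.08).

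Of 18 tested glutathione transferases, which detoxify by conjugation, 5 were higher and 13 lower, 4 and 8 by 4-fold, with a median of -1.73. Mgst1, the microsomal enzyme, was at 210, 192 and 214 CPM in TM3 and 0, 0.113 and 0.126 CPM in TM4 (-11.18 ± 0.16), and Gsta3 at 44.3, 35.6 and 41.7 CPM in TM3 and 0 counts in TM4, at least 221-fold lower. The exceptions included Gstk1, with 0 counts in TM3 and 12.9 ± 1.57 CPM in TM4, and Gstp1, at 1.71 ± 0.896 and 71.5 ± 1.82 CPM (5.40 ± 0.14), whose close copies make the division of reads uncertain. Fmo1 to Fmo4, neighbouring flavin monooxygenase genes on chromosome 1, were counted in TM3 and at the floor in TM4, Fmo2 at 57.7 ± 3.88 CPM. Among cytochromes P450, Cyp1b1 was at 91.5 ± 0.994 CPM in TM3 against 1 count in TM4, and Cyp2u1 had 0 counts in TM3 and 8.35 ± 0.91 CPM in TM4. Of 27 tested antioxidant genes, 8 (29.6%) were higher and 16 (59.3%) lower, beside 40.0% and 42.0% over all genes. Gpx7, a peroxidase of the endoplasmic reticulum, had 0 counts in TM3 and 33, 34.3 and 35.2 CPM in TM4, at least 189-fold higher.

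Of 14 tested retinoid genes, 8 were higher and 5 lower in TM4, 3 and 4 by 4-fold, with a median of 0.87. The cellular carrier Crabp2 was at 0.475 ± 0.252 and 15.4 ± 1.5 CPM (4.98 ± 0.25), while Dhrs3, which returns retinal to retinol, was at 285 ± 12.9 and 13.7 ± 1.49 CPM (-4.38 ± 0.07) and Aldh1a1, which makes retinoic acid, at 434 ± 5.8 and 37 ± 3.01 CPM (-3.55 ± 0.06). The sterol exporter Abca1 was at 83.1, 97.1 and 85.3 CPM in TM3 and 0.189, 0.0566 and 0 CPM in TM4 (-9.96 ± 0.19). Of the genes of steroid synthesis, Fdxr, the reductase that feeds electrons to mitochondrial P450 enzymes, was at 184 ± 1.07 and 10.2 ± 0.653 CPM (-4.17 ± 0.07).

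Mitochondrially encoded messages changed unevenly. mt-Co1, a subunit of complex IV, was the most abundant named protein-coding gene by TPM in both lines, at 17148 in TM3 and 25056 in TM4, and was higher in TM4 (0.70 ± 0.05). Of the organelle's 13 protein-coding genes 12 were tested, and among these mt-Co1 was the only one higher and 10 were lower. mt-Cytb was at 2842 ± 59.7 and 609 ± 36.1 CPM (-2.22 ± 0.05), and mt-Nd2 at 1339 ± 23.7 and 301 ± 13 CPM (-2.15 ± 0.05). With ribosomal and transfer RNA genes, 24 were tested, 5 higher and 15 lower. The ribosomal RNA genes mt-Rnr1 (0.36 ± 0.05) and mt-Rnr2 (1.23 ± 0.06) were higher. The mitochondrial genome took 1.82% to 1.87% of counts in TM3 and 1.66% to 1.72% in TM4. Near copies of mitochondrial genes lie in the nuclear genome, and how reads shared with them were counted is not given in the sources used here. Among nuclear genes, chaperones of the endoplasmic reticulum entered the most abundant in TM4: Hspa5 (BiP) was at 494, 453 and 484 CPM in TM3 and 9875, 9705 and 10675 CPM in TM4 (4.40 ± 0.07), or 381 and 7266 TPM, and Calr (calreticulin) at 665 ± 23.5 and 4102 ± 70.1 CPM (2.63 ± 0.05).

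Interferon-stimulated (60.0%) and cholesterol (47.8%) genes had the largest shares higher by 4-fold in TM4 among the lists plotted. Cells make cholesterol from acetyl-CoA through a chain of enzymes that the factor Srebf2 switches on together when sterols are scarce, and interferon-stimulated genes are antiviral genes switched on together through factors that include Stat2 and Irf9. Promoter sequences of 4 interferon-stimulated and 3 cholesterol genes are shown because each list leaned to TM4 and its factors bind known short motifs. They cover the 200 bases before the transcript start in RefSeq, build GRCm38.p6, read 5′ to 3′ on the gene's strand, in lower case with motif matches on either strand in capitals. In the interferon genes the capitals mark the core of the interferon response element, a pair of GAAA runs with 2 bases of any kind between them. In the cholesterol genes they mark CCAAT, the NF-Y box, and TCACNCCA, a sterol element. These genes were picked after the matches and values were seen.
Isg15 promoter, chr4:156200819-156201018, minus strand: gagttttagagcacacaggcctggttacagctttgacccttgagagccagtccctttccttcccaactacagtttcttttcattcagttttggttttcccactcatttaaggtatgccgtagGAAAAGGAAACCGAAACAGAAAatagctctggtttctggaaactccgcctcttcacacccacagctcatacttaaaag
Rsad2 promoter, chr12:26456453-26456652, minus strand: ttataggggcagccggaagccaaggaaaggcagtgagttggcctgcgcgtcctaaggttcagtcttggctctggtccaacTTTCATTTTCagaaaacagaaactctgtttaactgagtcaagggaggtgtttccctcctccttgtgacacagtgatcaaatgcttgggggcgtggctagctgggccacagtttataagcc
Ifit1 promoter, chr19:34640689-34640888, plus strand: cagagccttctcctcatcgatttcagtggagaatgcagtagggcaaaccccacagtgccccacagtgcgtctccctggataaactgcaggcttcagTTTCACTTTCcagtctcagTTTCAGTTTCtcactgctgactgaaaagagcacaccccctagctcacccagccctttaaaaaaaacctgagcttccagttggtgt
Gbp3 promoter, chr3:142559844-142560043, plus strand: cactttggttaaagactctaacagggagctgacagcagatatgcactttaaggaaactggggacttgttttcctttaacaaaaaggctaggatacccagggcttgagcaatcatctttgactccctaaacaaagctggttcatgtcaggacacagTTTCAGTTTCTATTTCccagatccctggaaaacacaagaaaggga
Hmgcs1 promoter, chr13:119690151-119690350, plus strand: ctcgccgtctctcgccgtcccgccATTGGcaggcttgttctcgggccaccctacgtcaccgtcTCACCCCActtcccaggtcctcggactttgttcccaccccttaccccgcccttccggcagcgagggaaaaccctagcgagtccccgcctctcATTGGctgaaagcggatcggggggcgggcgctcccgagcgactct
Idi1 promoter, chr13:8885406-8885605, plus strand: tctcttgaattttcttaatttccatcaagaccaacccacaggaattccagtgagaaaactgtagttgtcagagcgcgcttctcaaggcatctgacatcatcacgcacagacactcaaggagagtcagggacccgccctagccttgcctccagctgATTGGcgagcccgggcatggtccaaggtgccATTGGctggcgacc
Msmo1 promoter, chr8:64733579-64733778, minus strand: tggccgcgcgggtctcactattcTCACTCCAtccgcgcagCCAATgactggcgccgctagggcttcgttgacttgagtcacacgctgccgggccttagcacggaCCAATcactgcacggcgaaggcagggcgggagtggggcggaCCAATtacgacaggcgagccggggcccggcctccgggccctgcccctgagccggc
The motifs were searched on both strands of the 250 bases before the start, over 16727 promoters whose RefSeq start lay within 500 bases of the deposited gene's 5′ end. This core was found in 9 of the 22 interferon-stimulated genes with a promoter (40.9%) and in 2.84% of all promoters. CCAAT was found in 14 of 15 cholesterol genes (93.3%) and in 35.7% of all, and TCACNCCA in 3 of 15 and in 3.52% of all. A match is a run of letters and not a measured site. The lists gather genes known to answer to such factors, so these shares describe the lists and not the lines. Whether a match goes with the difference between the lines was not tested.

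**Figure D4:**
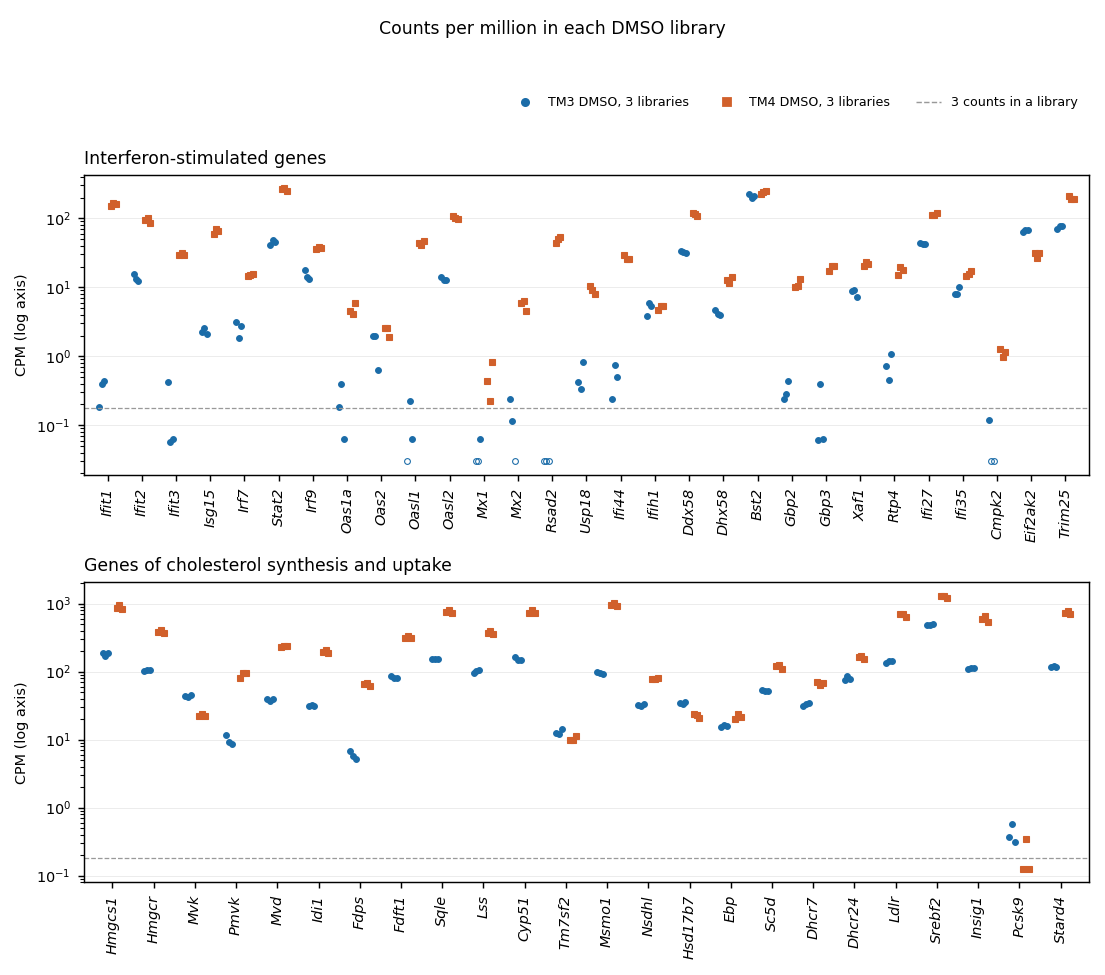
CPM in each DMSO library for genes of the interferon-stimulated and cholesterol lists, TM3 as blue circles and TM4 as orange squares, on a log axis. TM4 lies above TM3 for most genes of both lists, with Eif2ak2, Mvk, Hsd17b7 and Tm7sf2 on the other side.

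Of 30 interferon-stimulated genes tested, 26 were higher and 2 lower in TM4, 18 of the higher ones by 4-fold, beside 9.61% over all genes, with a median of 2.87. Ifit1, which binds foreign RNA caps, was at 0.182, 0.398 and 0.443 CPM in TM3 and 151, 167 and 164 CPM in TM4 (8.85 ± 0.15). Oasl1 was at 0, 0.227 and 0.0633 CPM in TM3 and 43.8, 41 and 46.2 CPM in TM4 (8.66 ± 0.22), and the antiviral enzyme gene Rsad2 had 0 counts in TM3 and 44.5, 50.6 and 53.3 CPM in TM4, at least 274-fold higher. In none of these genes did the lines overlap. Isg15, the ubiquitin-like modifier, was at 2.32 ± 0.269 and 64.9 ± 4.76 CPM (4.80 ± 0.13). Stat2, a factor named above and itself a member of the list, was higher in TM4, at 45.2 ± 3.53 and 262 ± 13.6 CPM (2.54 ± 0.07), and Irf9 likewise (1.29 ± 0.09). Whether these factors act on the list in these lines was not tested. The receptor subunits Ifnar1 and Ifnar2 were lower in TM4, at -0.60 ± 0.06 and -1.23 ± 0.07. The call of Bst2 (0.16 ± 0.05) was lost without TM3 replicate 2 (0.12, adjusted p = 0.0647, edgeR).

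Of 23 cholesterol genes tested, 20 were higher and 3 lower in TM4, 11 of the higher ones by 4-fold, with a median of 1.94. Msmo1, a sterol demethylation enzyme, was at 98.8, 93.9 and 91 CPM in TM3 and 966, 1008 and 927 CPM in TM4 (3.35 ± 0.06). Idi1, the isopentenyl isomerase, was at 31.2, 32.2 and 31 CPM in TM3 and 195, 211 and 189 CPM in TM4 (2.66 ± 0.06), and Hmgcs1, which starts the pathway, at 189, 172 and 188 CPM and 859, 961 and 830 CPM (2.27 ± 0.06). The lines did not overlap at these enzymes. Stard4, a sterol carrier, was at 117 ± 1.98 and 732 ± 37.2 CPM (2.64 ± 0.05), and Fdps, at 5.93 ± 0.871 and 65.4 ± 2.88 CPM (3.46 ± 0.10), has near copies in the genome that make its level uncertain. Srebf2 itself was higher (1.39 ± 0.05). Fatty acid synthesis leaned the same way, with 14 of 23 tested higher, 7 lower and a median of 0.54, led by Lpin3, Fabp5 and the desaturase Scd1, at 109 ± 1.09 and 825 ± 40.2 CPM (2.93 ± 0.06). Of 28 tested genes of fatty acid oxidation, 5 were higher and 16 lower, with a median of -0.23.

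The cell cycle lists differed by phase. Of 25 tested genes of G2 and mitosis, 24 were higher in TM4 and 0 lower, 2 of them by 4-fold, with a median of 1.09. Aurka, a spindle kinase, was at 24.6, 25 and 26.9 CPM in TM3 and 103, 127 and 114 CPM in TM4 (2.17 ± 0.08), and Cdc25c, which activates Cdk1, at 7.57 ± 1.06 and 38.7 ± 3.61 CPM (2.35 ± 0.10). Mki67 was not called (adjusted p = 0.973, edgeR). The call of Cdk1 (0.18 ± 0.06) was lost without TM4 replicate 3 (0.13, adjusted p = 0.0654, edgeR). Of 25 tested S-phase genes, 4 were higher and 17 lower, 0 by 4-fold, with a median of -0.35, and Rrm2, a subunit of ribonucleotide reductase, was at 62.8 ± 2.26 and 16.8 ± 2.68 CPM (-1.91 ± 0.09). Of 19 tested targets of Yap and Tead, 11 were higher and 6 lower, with Ankrd1 at 3.61 ± 0.404 and 116 ± 3.44 CPM (5.01 ± 0.09) and Ctgf, a matricellular factor, at 22.2, 13.7 and 13 CPM in TM3 and 380, 425 and 424 CPM in TM4 (4.65 ± 0.21).

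The tumour suppressor genes Cdkn2a and Cdkn2b, which encode the Cdk inhibitors p16 and p15 and, from Cdkn2a, the p53 activator p19Arf, were without a count in TM3. Cdkn2a (chromosome 4, 89274471 to 89294653, mm10) was at 271, 281 and 303 CPM in TM4, at least 1576-fold higher, and Cdkn2b (89306299 to 89311039) at 41.5, 48.3 and 46.9 CPM, at least 252-fold higher. The flanking genes were counted in TM3. Mtap, on the side of Cdkn2a, was at 266, 239 and 260 CPM in TM3 and 44.1, 39.8 and 41.1 CPM in TM4 (-2.61 ± 0.06), Klhl9 at 68.8 ± 0.894 and 82.9 ± 1.9 CPM (0.27 ± 0.06), and Elavl2, on the side of Cdkn2b, at 21.3 ± 1.88 and 0.675 ± 0.29 CPM (-4.97 ± 0.19). The 2 genes without a count in TM3 thus lay between genes that were counted there. Trp53 was at 166 ± 7.79 and 132 ± 3.41 CPM (-0.32 ± 0.05), and its target Cdkn1a at 8.27 ± 1.3 and 35.4 ± 3.39 CPM (2.10 ± 0.11).

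Of 19 tested imprinted genes, 8 were higher and 11 lower in TM4, 1 (5.26%) and 6 (31.6%) by 4-fold, beside 9.61% and 15.2% over all genes. Grb10, a growth suppressor, was at 292, 302 and 301 CPM in TM3 against 2 counts in TM4, a ratio of 7355 (95% interval 2036 to 60741). Peg10, a retrotransposon-derived gene expressed from the paternal allele, was at 3.28, 3.92 and 3.23 CPM in TM3 and 263, 251 and 217 CPM in TM4 (6.12 ± 0.11). H19 was at 3.1 ± 0.7 CPM in TM3 against 1 count in TM4, and Igf2 had 0 counts in the 6 libraries. Of 13 tested genes of DNA methylation, 5 (38.5%) were higher and 6 (46.2%) lower, close to the share over all genes, with a median of -0.10. The methyltransferase Dnmt3a was at 242 ± 9.1 and 58.9 ± 3.55 CPM (-2.04 ± 0.06), and Tet2, which oxidizes methylcytosine, at 11.9 ± 1.4 and 48.6 ± 3.21 CPM (2.03 ± 0.11).

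Most Y-linked RNA counted in TM3 was close to absent in TM4. Of 21 tested genes of the Y chromosome, 19 were lower and 1 higher. The fitted median was -6.40, but it takes in genes without a count in TM4, where only a lower bound of the fold is known. Most of the 21 are gene models that the deposited table leaves unannotated, so named single genes make up a small part of this count. How reads shared between copies were counted is not given in the sources used here. Ddx3y, an RNA helicase, was at 414 ± 17.3 and 1.42 ± 0.381 CPM (-8.18 ± 0.09), Kdm5d, a histone demethylase, at 238 ± 17 and 0.523 ± 0.0913 CPM (-8.80 ± 0.11) and Uty at 131 ± 4.11 and 0.364 ± 0.0424 CPM (-8.46 ± 0.13). Eif2s3y, another broadly expressed Y gene, had 1 count in TM3 and 0.695, 0.792 and 0.696 CPM in TM4, so it was near the floor in both lines. The most counted gene model of the Y chromosome, which the table leaves unannotated, alone took 0.904% to 0.95% of the TM3 counts and 1.64 CPM at most in TM4. Kdm6a, the X homolog of Uty, was at 25.2 ± 1.8 and 78.9 ± 6.26 CPM (1.65 ± 0.08). Xist was at most 0.57 CPM in any library.

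**Figure D5:**
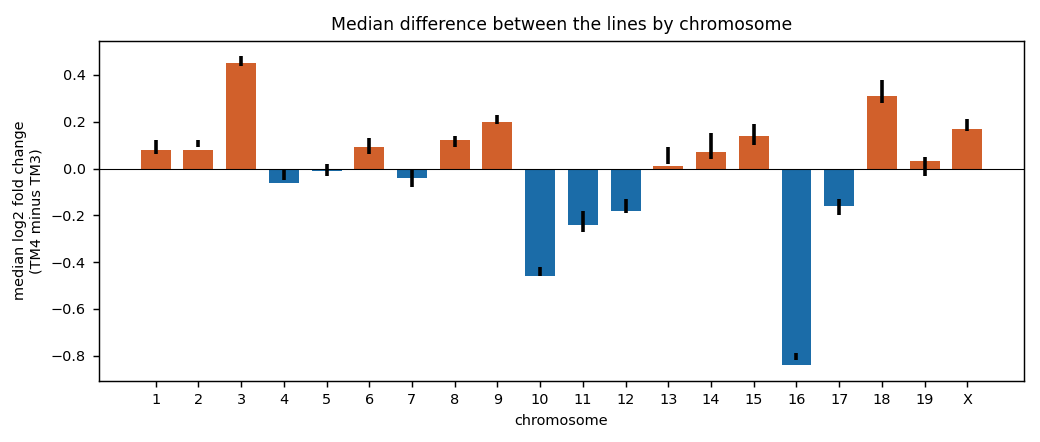
Median log2 fold change, TM4 minus TM3, of the genes tested on each autosome and X (bars), with black lines for the range of the chromosome's median over the pairs of a TM4 and a TM3 library, there relative to the median of all genes. Among the autosomes and X, which are the chromosomes drawn, chromosome 16 is lowest at -0.84 and chromosome 3 highest at 0.45.

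The plot of medians by chromosome shows smaller shifts than that of Y over the autosomes and X. Chromosome 16 had a median of -0.84, with 88 genes higher and 318 lower of 471 tested, and over the 9 library pairs its median lay between -0.82 and -0.79 relative to that of all genes. Chromosome 10 followed at -0.46 (-0.46 to -0.42 over the pairs), and of the autosomes and X, chromosomes 3 and 18 were the highest at 0.45 and 0.31 (0.44 to 0.48 and 0.28 to 0.38 over the pairs). DNA copy number was not measured here, and its part in these shifts was not tested. Genes counted in 1 line also lay side by side, in 23 runs of at least 3 neighbours for TM3 and 6 for TM4. The TM3 runs included Krt15, Krt19, Krt9 and Krt14, type I keratins on chromosome 11, Serpina3g, Serpina3h, Serpina3m and Serpina3n on chromosome 12, and Wt1os, Wt1 and Them7 on chromosome 2. Those of TM4 included Crnde, Gm21817 and Irx5 on chromosome 8 and Trpc6, Gm32014 and Pgr on chromosome 9.

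The 6 libraries exposed to MEHP gave the same contrast a second time. Of the 3903 genes called at 4-fold under DMSO, 3802 were also called in the same direction under MEHP and 3135 of them by 4-fold. Of the genes counted in TM3 alone and in TM4 alone under DMSO, 371 of 534 and 201 of 281 met the same rule under MEHP. The fit of these calls shares its estimate of spread over the 12 libraries.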

How the data were processed

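RNA-seq of poly-A RNA was read as 150-base pairs on a NovaSeq, per the labels' protocols. The authors deposited raw counts per gene. The submitters' processing notes name the build mm10, the counter featureCounts 1.5.0-p3 and the aligner HISAT2 2.0.5, and also StringTie 1.3.3b, edgeR and DESeq2 1.20.0; no strand setting or annotation release is stated. The counts were tested in edgeR 4.0.16 (R 4.3.3; TMM scaling, filterByExpr, robust quasi-likelihood F-test, 4 groups of 3 libraries, 8 residual degrees of freedom), checked on simulated data; limma 3.58.1 and DESeq2 1.42.0 served as alternatives. CPM used TMM-scaled library sizes and TPM the deposited gene lengths. A gene counted in 1 line had at least 1 CPM in each of its libraries and at most 3 counts in each library of the other. Replicate libraries differed by more than sampling noise.

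Members and lists were chosen with earlier results of these data known. Named genes were, from each list, up to 6 called members with the largest change, the 15 largest changes and 10 factors each way, the 10 most abundant genes of each line, 5 long noncoding RNAs each way, and genes looked up whatever their values. Any other named gene, and the promoter motifs, were chosen after values were seen. Tables and figures used Python 3.11.15, pandas 2.3.3, scipy 1.17.1 and matplotlib 3.10.9. Some members of the lists are not reported by name here or drawn in the figures; they remain in the counts.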

Additional observations from a re-analysis of the deposited data

Results flagged for a closer look

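The difference between the lines was not the same with and without MEHP for 4134 genes, by edgeR's test of the interaction over 12 libraries at an adjusted p under 0.05. Of the 3903 genes called at 4-fold under DMSO, 779 were among them, and 165 genes were called in opposite directions under the 2 conditions.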

How the results depend on the processing

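Against 12881 genes called, DESeq2 called 12740, limma-voom 12903, edgeR with RLE factors 12866 and with upper-quartile factors 12873, and the fit of the 6 DMSO libraries alone 12410. Tested against a fold of 2 with glmTreat, 6247 genes passed, 2694 higher in TM4 and 3553 lower. Leaving out each DMSO library in turn gave 12757 to 12830 called genes (6202 to 6284 higher, 6539 to 6610 lower), 4107 to 4186 at 4-fold (1547 to 1636 higher, 2471 to 2580 lower), and 559 to 598 genes counted in TM3 and 294 to 325 in TM4 alone. These were 223 and 146 when 0 counts were required in the other line, and 217 and 113 with at least 5 CPM. With the replicate number as a block, 12908 genes were called (6293 higher, 6615 lower) and 3905 at 4-fold (1513 and 2392). Same-numbered libraries of the lines did not deviate together (correlations of -0.0394, -0.0177 and 0.0194). With 3 libraries per line this cannot exclude that the numbers pair them, and the labels do not state it. Of 1431 list and named genes, 63 of the 1298 called lost the call in at least 1 of 14 settings, 34 gained one and 0 reversed. Against TMM, RLE factors moved the median of all genes to -0.03 and upper-quartile factors to -0.05. Genes near the floor of 3 counts are limited by depth.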

Other observations

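Car6, a secreted carbonic anhydrase, was at 0.182, 0.0568 and 0.253 CPM in TM3 and 46.5, 41.8 and 51.8 CPM in TM4 (8.12 ± 0.25), and Car9, the hypoxia-induced membrane form, at 105, 101 and 110 CPM in TM3 and 5.93, 5.49 and 7.33 CPM in TM4 (-4.08 ± 0.09). The lines overlapped at neither. Of 24 tested immediate early genes, 12 were higher in TM4 and 8 lower, about the share called over all genes (82.0%). Fosb was higher (3.70), as was Atf3 (3.21), and Dusp5 (-3.30) and Fos (-2.43) were lower, so members of the Fos family differed in direction. Nes (nestin), an intermediate filament of progenitors, was at 0.928 ± 0.307 and 107 ± 4.1 CPM (6.85 ± 0.12), and Mbp, myelin basic protein, was lower in TM4 (-5.42 ± 0.14).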
